A study of Rattus norvegicus with 27 samples.

Results

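Perineuronal nets are lattices of extracellular matrix that wrap the cell body and proximal dendrites of certain neurons. Hyaluronan chains made at the cell membrane form the backbone, proteoglycans of the lectican family bind to them, link proteins clamp that bond, and tenascin-R ties the lecticans to one another. In the cerebellum the large neurons of the deep nuclei, among them the interpositus nucleus, are known to carry such nets. The 10 genes described here were chosen by gene symbol as the components of that lattice, out of 17321 genes in the count table. They are the lecticans Acan (aggrecan), Bcan (brevican), Ncan (neurocan) and Vcan (versican), the link proteins Hapln1, Hapln2 and Hapln4, the crosslinker Tnr (tenascin-R), and the hyaluronan synthases Has2 and Has3. All 10 were found once in the table and all 10 passed the filter on low counts, which left 12107 genes for testing.

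The samples are tissue punches aimed at the interpositus nucleus (IP) of the cerebellum, taken from Long-Evans rats at postnatal day 70, and messenger RNA was sequenced. Normally reared rats (no treatment, NT) gave 5 females and 7 males, and rats whose dams had limited bedding (LB) from postnatal day 2 to 9 gave 7 females and 8 males. Pups of both rearing groups had been cross-fostered before treatment began, and each punch was 2 mm wide across sections of 1 mm, so it holds whatever cell types lie within that circle. Levels are given as CPM, a count relative to the TMM-scaled library total, or per kilobase of exon as well (RPKM) wherever genes are set against each other, and animals are named by their sample titles.

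The deep nucleus label was checked first. Slc17a6, the vesicular glutamate transporter of excitatory deep nucleus neurons, ranged from 0.280 to 380 CPM with a median of 2.77 CPM over the 27 punches. It stood above 20 CPM in NT male 6112 at 380 CPM, LB male 7122 at 74.9 CPM, NT male 3111 at 59.9 CPM, NT male 4113 at 30.1 CPM and LB male 121 at 21.6 CPM, and in no female. A score for deep nucleus neurons, the mean over 8 marker genes of log2(CPM + 0.5) centred over animals, was 3.13 in NT male 6112, from 1.02 to 1.59 in NT males 3111 and 4113 and LB male 7122, and below 0 in every female of both groups. The 8 markers did not all rise together. Lhx9 was 7.28 CPM in NT male 6112, 6.20 in LB male 7122 and 2.57 in LB male 121. It was 0.694 CPM in NT male 3111 and 0.600 in NT male 4113, beside a median of 0.442 CPM. Vamp1 was 551 CPM in NT male 4113, beside a median of 604 CPM. NT male 6112 stood apart by its score, and some results for the members are also given without it. It had in addition the highest levels of several genes of cholinergic neurons. Slc5a7, the choline transporter, was 131 CPM, Chat 18.9 CPM, Slc18a3 10.6 CPM and Prph 55.7 CPM. NT male 3111 had 13.1 CPM of Prph, beside a median of 0.458 CPM. Which neurons raised the score in these animals was not tested. Total counts ran from 11836684 to 24169170 per animal.

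The promoters of 3 members are shown because these genes carry the clearest relations described later, and because Bcan and Hapln2 are neighbours in the genome. Each line is the RefSeq window from 250 bases before to 50 bases after the annotated start in GRCr8, read along the gene, at chr1:142390701-142391000 for Acan, chr2:175765265-175765564 for Bcan and chr2:175794389-175794688 for Hapln2. Capitals in Acan and Bcan mark the GC box GGGCGG read on the opposite strand, CCGCCC, and capitals in Hapln2 mark the SOX core ACAAAG.
Acan: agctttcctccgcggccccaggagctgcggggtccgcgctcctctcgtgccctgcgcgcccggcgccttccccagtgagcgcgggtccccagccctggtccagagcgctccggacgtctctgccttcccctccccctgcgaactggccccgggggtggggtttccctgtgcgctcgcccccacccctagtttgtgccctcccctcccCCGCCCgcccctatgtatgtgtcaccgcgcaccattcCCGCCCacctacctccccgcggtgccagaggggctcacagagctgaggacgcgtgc
Bcan: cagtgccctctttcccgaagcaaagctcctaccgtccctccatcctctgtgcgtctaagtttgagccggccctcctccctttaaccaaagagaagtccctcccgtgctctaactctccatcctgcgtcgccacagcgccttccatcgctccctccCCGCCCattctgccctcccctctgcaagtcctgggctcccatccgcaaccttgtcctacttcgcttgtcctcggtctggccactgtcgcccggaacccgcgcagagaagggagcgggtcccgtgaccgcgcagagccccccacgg
Hapln2: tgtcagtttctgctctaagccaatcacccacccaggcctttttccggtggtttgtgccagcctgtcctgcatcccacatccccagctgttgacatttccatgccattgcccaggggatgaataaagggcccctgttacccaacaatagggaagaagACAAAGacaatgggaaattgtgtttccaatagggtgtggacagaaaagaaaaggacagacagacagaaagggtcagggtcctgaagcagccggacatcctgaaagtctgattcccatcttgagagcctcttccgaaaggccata
Both motifs were searched on both strands of 33469 promoters of the same length, of which 33.1% held the GC box and 18.8% the SOX core. Promoters were found for 8 of the 10 members. The Acan window is 73.0% G or C with 28 CpG pairs, the Bcan window 64.0% with 22 and the Hapln2 window 50.3% with 3, so the 3 windows differ in base composition as well as in these short matches, which are common and are given as a description only.

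Per length of transcript, the members spanned a wide range of levels. Hapln4, the link protein that sits with brevican around deep nucleus neurons, was highest at a median of 67.0 RPKM, and Bcan followed at 36.5 RPKM. Hapln4 exceeded Bcan in 26 of 27 animals, and Bcan exceeded Hapln2, at 16.7 RPKM, in 24 of 27. Vcan (7.94 RPKM), Tnr (6.43 RPKM) and Ncan (5.21 RPKM) lay close together, and their order was not settled, since Vcan exceeded Tnr in 13 animals and Tnr exceeded Ncan in 19. Hapln1 came next at 3.54 RPKM, and Acan, the lectican most often used to mark nets, was far below the others at 0.232 RPKM. Has3 and Has2 closed the order at 0.165 and 0.162 RPKM, with Has3 above Has2 in 13 of 27 animals. Has2 had 4 to 26 counts and Has3 0 to 18 counts per animal, so small differences in either were not detectable at this depth. Has3 had 0 counts in LB female 5022, where a count of 0 allows up to 3 counts, on average 0.178 CPM over the LB females, and such limits cover counting error only.

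**Figure D1:**
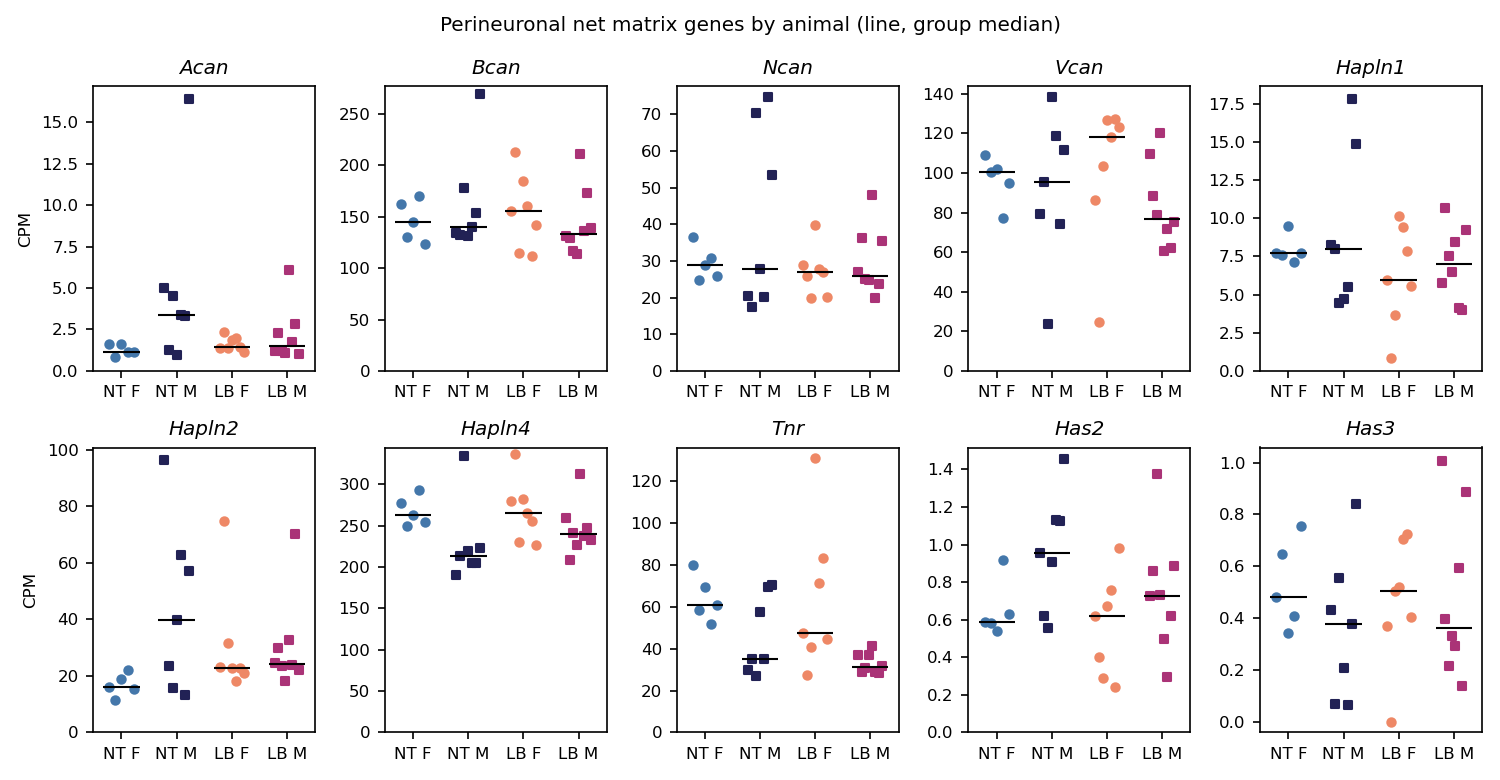
TMM-scaled CPM of each member (vertical axis) in the 4 groups of animals by rearing and sex, with 1 point per animal and a line at the group median. Acan reaches 16.4 CPM in 1 NT male while the 5 NT females lie between 0.840 and 1.62 CPM, and the animals of each group lie closest together, relative to their mean, for Hapln4.

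Within a family the share of RPKM taken by each member shifted between animals. Bcan took from 64.5% to 88.3% of the lectican RPKM, with the highest share in LB female 5022. Ncan took from 7.31% in NT male 3112 to 23.6% in NT male 6111, and Vcan from 3.16% in NT male 3113 to 23.5% in LB female 8023. Acan never took more than 2.57%, which it reached in NT male 6112. Among the link proteins Hapln4 held a median of 76.0% and Hapln2 19.1%, but in NT male 3111 Hapln2 rose to 55.4% and Hapln4 fell to 40.9%. In bulk punches fewer cells of a type and less RNA per cell cannot be told apart.

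The first comparison asked whether the members differed between normally reared males and females. Acan was the lectican that did. In NT females it was 0.840 CPM in animal 1013, 1.14 in 2013, 1.17 in 2012, 1.61 in 1011 and 1.62 in 2011. Among NT males it was 0.979 CPM in animal 4111, 1.24 in 3112, 3.31 in 6111, 3.40 in 4113, 4.50 in 3113, 5.03 in 3111 and 16.4 in 6112. Thus 5 of 7 NT males lay above every NT female and the other two within their range. The means were 4.98 ± 5.26 CPM (SD, n = 7) and 1.28 ± 0.336 CPM (SD, n = 5), and the log2 fold change was 1.96 with an SE of 0.539 and an adjusted p of 0.0205 in the quasi-likelihood test of edgeR, adjusted by Benjamini-Hochberg over all genes. Without NT male 6112 the log2 fold change of Acan was 1.26 with an adjusted p of 0.0634, and the call was also lost without NT female 1013 or NT female 2012. With the deep nucleus score as a covariate it was 0.65 with an adjusted p of 0.320.

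Hapln2, the link protein found at nodes of Ranvier on myelinated axons, was the other member called. It ran from 11.6 to 22.1 CPM in NT females with a median of 15.9 CPM, and from 13.2 to 96.6 CPM in NT males with a median of 39.8 CPM. As for Acan, 5 of 7 NT males lay above every NT female. The log2 fold change was 1.40 with an SE of 0.437 and an adjusted p of 0.0344. The oligodendrocyte markers moved with it: 8 of 8 of them, among them Mbp of the myelin sheath, were called higher in NT males in the same fit, and none was at 0 in any punch. The oligodendrocyte score ran from -1.06 to -0.43 in NT females and from -0.75 to 1.39 in NT males, a difference that did not pass (exact two-sided permutation adjusted p = 0.0629). With that score as a covariate the log2 fold change of Hapln2 was -0.32 with an adjusted p of 0.702. Leaving out any of 8 NT animals, 1011, 1013, 2011, 2012, 2013, 3111, 4113 or 6112, ended the call for Hapln2, and its log2 fold change over all such omissions lay between 1.08 and 1.56.

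Both calls were lost with limma-voom, at an adjusted p of 0.0776 for Acan and 0.0922 for Hapln2, and with the sets of animals that share a title prefix as a random block, at 0.176 for Acan and 0.197 for Hapln2.

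These 2 calls among 10 members stand beside 15.2% of all genes tested that differed between NT males and NT females, so the share called was near that of genes in general. The median log2 fold change over the members was 0.17, beside 0.03 over all genes. The other 8 members did not pass. Among them Has2 had a log2 difference of 0.56 and an adjusted p of 0.254, and 4 of 7 NT males lay above every NT female. Hapln4 went the other way, with 6 of 7 NT males below every NT female, a log2 difference of -0.24 and an adjusted p of 0.179. The exception was NT male 3113, which had the highest Hapln4 of that sex and rearing at 334 CPM. Tnr was below every NT female in 4 of 7 NT males, with a log2 difference of -0.47 and an adjusted p of 0.245. Of the scores, 2 differed between these groups after adjustment over 56 tests. The granule cell score was lower in all 7 NT males than in every NT female, and the cholinergic neuron score was higher in all 7 (exact two-sided permutation test, adjusted p = 0.0471 for each). The cholinergic score was made from Slc5a7, Slc18a3 and Prph, since Chat and Isl1 did not pass the filter. In NT females Slc5a7 had at most 3 counts and Slc18a3 at most 1. The lowest NT male, at -0.684, was close to the highest NT female, at -0.722. The deep nucleus score was above every NT female in 6 of 7 NT males and did not pass (exact permutation adjusted p = 0.170). Apart from the covariates given, the part of these scores in the differences was not tested.

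**Figure D2:**
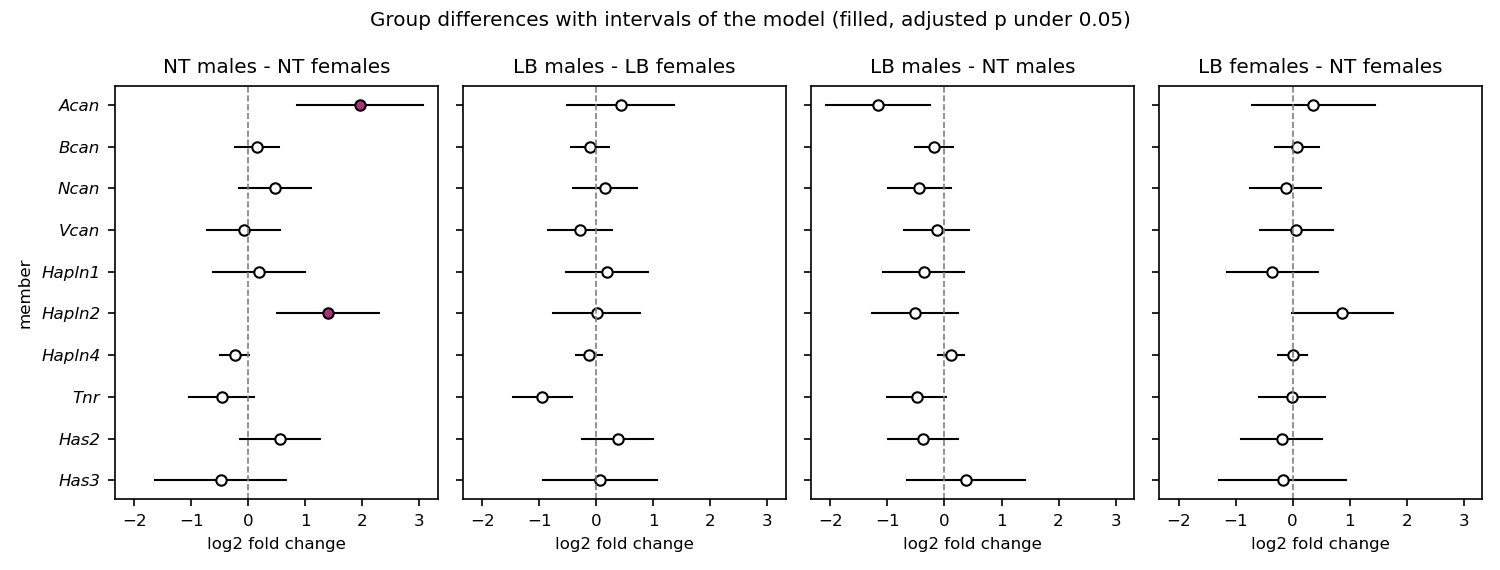
Log2 fold change of each member (horizontal axis) in 4 comparisons of groups, with 95% intervals from the edgeR model and filled points where the adjusted p was under 0.05. The filled points are Acan at 1.96 and Hapln2 at 1.40 between NT males and NT females, and no point is filled in the other 3 comparisons.

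Between LB males and LB females, where 0.248% of all genes were called, 0 of 10 members passed the threshold in edgeR. At an unadjusted p under 0.05 there was 1 member, beside 2053 of all 12107 genes, and DESeq2 called 1 member. That gene was Tnr, the glycoprotein that crosslinks lecticans. In LB females it ran from 27.6 CPM in animal 5022 to 131 CPM in animal 8021 with a median of 47.2 CPM. LB males lay in a narrow band from 28.5 to 41.3 CPM with a median of 31.2 CPM. No LB male was below the lowest LB female, animal 5022. The log2 fold change was -0.95 with an SE of 0.251 and an adjusted p of 0.0886, and with DESeq2 the adjusted p was 0.0161. Without LB female 5022, the lowest of its group, the log2 fold change of Tnr was -1.08 with an adjusted p of 0.0198. At the other end LB female 8021 lay well above the next LB female, at 83.4 CPM. The value without animal 8021 is not given here. Acan in these groups ran from 1.15 to 2.34 CPM in females and from 1.04 to 6.12 CPM in males, with a log2 difference of 0.43 and an adjusted p of 0.647. Hapln2 did not separate them either, with a log2 difference of 0.00 and an interval from -0.76 to 0.76.

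Over all 27 animals the sex difference was called in 2 of 10 members, Acan and Tnr, beside 29.3% of all genes. Acan was higher in males with a log2 value of 1.19, an SE of 0.350 and an adjusted p of 0.0141. Tnr was lower in males with a log2 value of -0.71, an SE of 0.188 and an adjusted p of 0.0078. Both calls stood when any animal was left out, with log2 values for Tnr from -0.79 to -0.57 and for Acan from 0.84 to 1.28. With the sets of animals that share a title prefix as a random block neither call stood, the adjusted p being 0.0528 for Tnr and 0.177 for Acan. With limma-voom and no block it was 0.0143 for Tnr and 0.0842 for Acan. Animals of such a set were all of the same sex and rearing, so a difference between sets and a difference between groups cannot be told apart.

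Rearing moved no member past the threshold. Between LB and NT males 0 of 10 members were called (0% of all genes, 1211 at an unadjusted p under 0.05). The lowest unadjusted p was that of Acan, whose median was 1.48 CPM in LB males and 3.40 CPM in NT males, with a log2 difference of -1.17, a 95% interval from -2.08 to -0.26 and an adjusted p of 0.462. All 8 LB males lay within the range of NT males. Without NT male 6112 that difference was -0.47 with an adjusted p of 0.939.

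Between LB and NT females 0 of 10 members were called either, beside 0.00826% of all genes. None had an unadjusted p under 0.05, beside 961 of all 12107 genes. Hapln2 came closest, with 5 of 7 LB females above every NT female, a log2 difference of 0.87, an interval from -0.01 to 1.75 and an adjusted p of 0.625. The oligodendrocyte score was likewise above that of every NT female in 5 of 7 LB females (exact two-sided permutation adjusted p = 0.0530). Hapln4 in the same comparison had an interval from -0.25 to 0.26. Over both sexes 0.00826% of all genes and 0 members were called between LB and NT. For the interaction of sex and rearing edgeR called 0% of all genes and 0 members, with 570 genes and 2 members at an unadjusted p under 0.05. Those members were Acan, at -1.53 on the log2 scale, and Hapln2, at -1.39, each with an adjusted p of 0.9998.

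The members were then set against the deep nucleus score of the punch, within groups, by adding the score to the model. The score is a mean of marker genes and not a count of deep nucleus neurons. A slope is the log2 change in a gene for each log2 unit of the score. In this fit 4.89% of all genes had a slope different from 0 and 3 of 10 members did, all upward. Acan had the steepest, at 0.83 with an SE of 0.130 and an adjusted p of 0.000327. It was 16.4 CPM in NT male 6112, 6.12 in LB male 7122, 5.03 in NT male 3111 and 3.40 in NT male 4113, the 4 animals with the highest score. NT males 3113 and 6111 had 4.50 and 3.31 CPM of Acan at scores of -0.38 and -0.17, so high Acan also occurred where the deep nucleus score was low. Over the 27 animals Pearson's r between the log2 level of Acan and the score was 0.855 (permutation p = 1e-05, the smallest these permutations can give, and 0.00012 adjusted over 60 relations). Spearman's rho was 0.590 (permutation p = 0.00137, adjusted 0.0146). Without NT males 6112 and 3111 r was 0.651, and within groups it was 0.846 in NT males, 0.815 in LB males and 0.320 in LB females, where the score spans little.

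**Figure D3:**
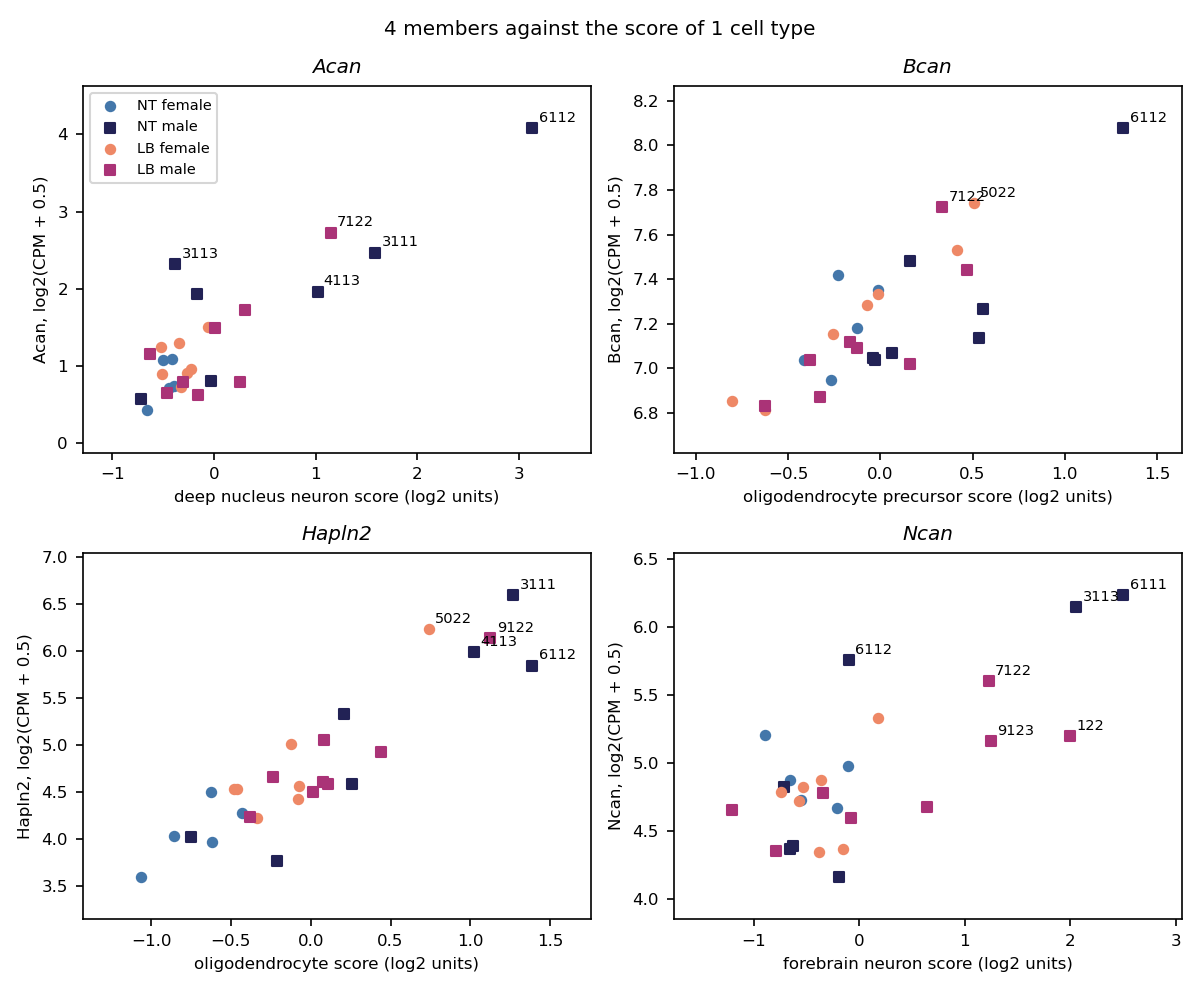
Log2(CPM + 0.5) of Acan, Bcan, Hapln2 and Ncan (vertical axes) against the score of 1 cell type each (horizontal axes, log2 units centred over 27 animals), with 1 point per animal, circles for females and squares for males. NT male 6112 lies far to the right for Acan and Bcan, whereas Hapln2 follows the oligodendrocyte score over its whole range.

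The call for the Acan slope rested on NT male 6112. Without it the slope was 0.82 with an SE of 0.210 and an adjusted p of 0.110, and without all 4 animals of highest score it was 0.80 with an SE of 0.519 and an adjusted p of 0.748. The slope kept its size in both fits while its error grew. It was also called with Slc17a6 alone as the score, at 0.36 and an adjusted p of 0.00037 as the log2 change for each log2 unit of Slc17a6, and without the neurofilament genes. With the score of cholinergic neurons added, which is highest in the same animal, the Acan slope was 0.54 with an adjusted p of 0.224.

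Bcan and Hapln2 were the other members with a called slope on the deep nucleus score. Bcan, the most abundant lectican, rose by 0.23 for each unit with an adjusted p of 0.0464. It was 269 CPM in NT male 6112, against 131 to 178 CPM in the other 6 NT males, and without that animal the slope of Bcan was 0.14 with an adjusted p of 0.795. Hapln2 had a slope of 0.59 with an adjusted p of 0.0448, and with the oligodendrocyte score added it was -0.03. Both calls were close to the threshold: leaving out 1 animal at a time, the Bcan slope was called in 8 of 27 fits and the Hapln2 slope in 7 of 27, while the Acan slope was called in 26 of 27. The remaining 7 members had slopes between -0.01 for Hapln4 and 0.24 for Has3, the lowest adjusted p among them being 0.719. Hapln4 had a narrow interval, from -0.13 to 0.11.

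The members were set against the scores of other cell types in the same way. Hapln2 rose with the oligodendrocyte score, with a slope of 1.25 with an SE of 0.120 and an adjusted p of 3.05e-08, and it was the only member of 10 called there (7.62% of all genes). Pearson's r was 0.908 and Spearman's rho 0.853 (permutation p = 1e-05 for both, adjusted 0.00012 and 0.0003), and r was 0.884 without NT males 6112 and 3111. It held within NT males at 0.908, within LB females at 0.897 and within LB males at 0.926. The slope was called in all 9 alternative settings and whichever animal was left out. Animals 3111, 5022, 9122, 4113 and 6112, with 96.6, 75.0, 70.1, 63.0 and 57.1 CPM of Hapln2, also had the 5 highest oligodendrocyte scores.

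Against the score of oligodendrocyte precursors, made from Pdgfra, Gpr17 and Olig2, 2 of 10 members were called beside 13.8% of all genes. Bcan, which precursors and astrocytes are known to make, had a slope of 0.68 with an SE of 0.086 and an adjusted p of 3.21e-05. For this pair r was 0.816 (permutation p = 1e-05, adjusted 0.00012) and rho 0.747 (permutation p = 2e-05, adjusted 0.0004), and r was 0.702 without NT male 6112 and LB female 5023. Within groups r was 0.982 in LB females, 0.856 in NT males and 0.824 in LB males. Acan had a slope of 1.57 with an adjusted p of 0.00068. For Acan r was 0.799 and rho 0.782 (permutation p = 1e-05 for both, adjusted 0.00012 and 0.0003). Without NT male 6112 and LB female 5023 r of Acan was 0.701. Within groups it was 0.735 in LB females, 0.824 in NT males and 0.827 in LB males. NT male 6112 had the highest precursor score, at 1.32, and the highest deep nucleus score, at 3.13. Correlations with 1 score at a time cannot tell the 2 relations apart. The precursor slopes with the deep nucleus score added are not given here. The precursor slopes of Acan and Bcan were both called whichever animal was left out. The highest adjusted p was 0.0422 for Acan, without NT male 6112, and 0.0020 for Bcan. Vcan, which precursors are also known to express, had a slope of -0.29 and was not called.

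On the astrocyte score 0 of 10 members were called in edgeR, beside 9.28% of all genes. At an unadjusted p under 0.05, where 3514 of all 12107 genes stood, there were 2 of 10 members. Those were Ncan at -0.90 and Vcan at 1.07, with adjusted p of 0.155 and 0.167. The granule cell score, whose cells surround rather than form the nucleus, had 16.7% of all genes and 3 members called, all downward: Acan at -1.69, Ncan at -0.89 and Bcan at -0.46. Spearman's rho with that score was -0.591 for Acan, -0.159 for Ncan and -0.169 for Bcan (permutation, adjusted p = 0.0146, 0.569 and 0.554). The microglia score had 25% of all genes and 3 members called, all upward: Acan at 2.11, Hapln2 at 1.25 and Bcan at 0.67. There rho was 0.556 for Acan, 0.497 for Hapln2 and 0.349 for Bcan (permutation, adjusted p = 0.0207, 0.0424 and 0.196). These scores are not independent of one another: NT male 6112 had the highest deep nucleus, precursor, oligodendrocyte and microglia scores and the lowest granule cell score.

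**Figure D4:**
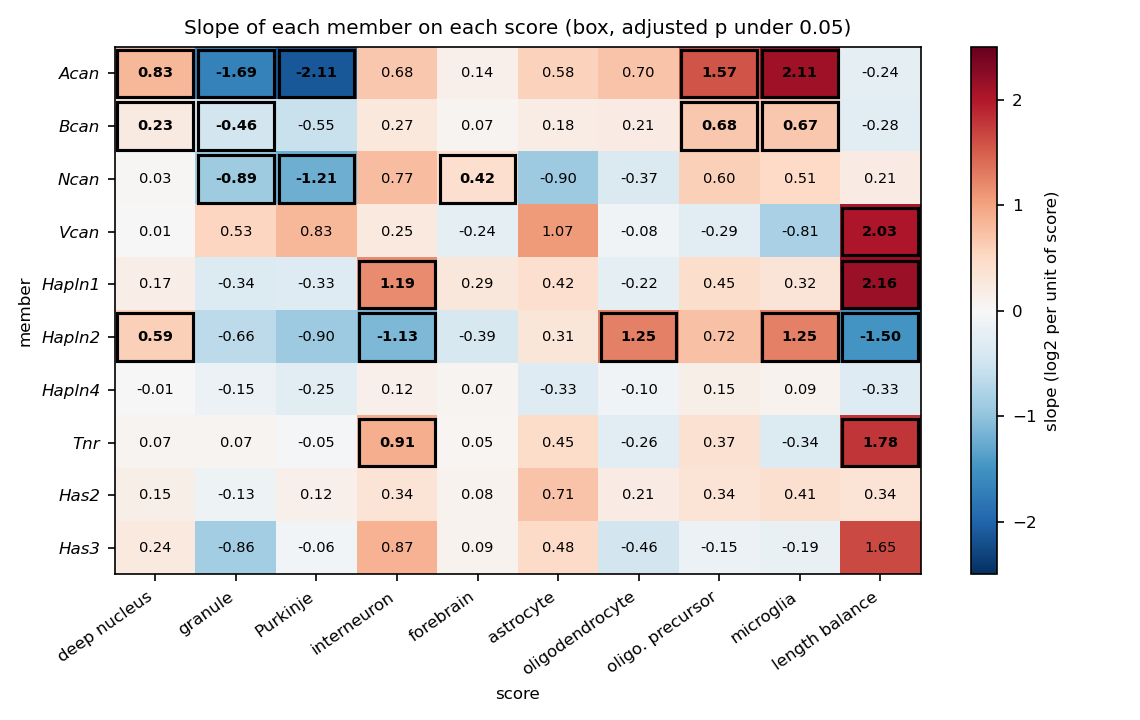
Slope of each member (rows) on 9 cell type scores and the transcript length balance (columns), as log2 change per log2 unit, from red for positive to blue for negative. Boxes mark an adjusted p under 0.05, and Hapln4, Has2 and Has3 have no box while Acan and Hapln2 have 5 each.

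Further slopes were added after the values had been seen. Ncan, a lectican of the developing brain, was the only member called on the forebrain neuron score, with a slope of 0.42, an SE of 0.078 and an adjusted p of 0.000363 (11.7% of all genes). Its highest levels were 74.8 CPM in NT male 6111 and 70.3 CPM in NT male 3113. Without the 5 animals of highest forebrain score the slope of Ncan was 0.18 with an adjusted p of 0.952. On the Purkinje cell score, with 10.4% of all genes called, Acan had a slope of -2.11 and Ncan of -1.21. On the score of Golgi and molecular layer interneurons, with 16.5% called, Hapln1 had a slope of 1.19, Tnr of 0.91 and Hapln2 of -1.13.

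Tnr, Vcan and Hapln1 were also set against the balance of long and short transcripts. The balance was computed for each animal as the mean log2 deviation of genes with at least 6000 exon bases minus that of genes with fewer than 2000, over 621 and 5303 genes. Acan, Vcan and Tnr themselves belong to the long set and Hapln2 to the short one, while Hapln1, with 2154 exon bases, belongs to neither. The balance was lowest at -0.68 in LB female 5022 and highest at 0.55 in LB female 8021. On it 50.9% of all genes and 4 of 10 members had a called slope, so the share of members was near that of genes in general. The slopes were 1.78 for Tnr, 2.03 for Vcan and 2.16 for Hapln1, with adjusted p of 1.18e-07, 1.59e-05 and 0.000810. Hapln2 went the other way at -1.50 with an adjusted p of 0.0106, and that call was lost without LB female 5022. Acan, although long, had a slope of -0.24 and an adjusted p of 0.804.

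**Figure D5:**
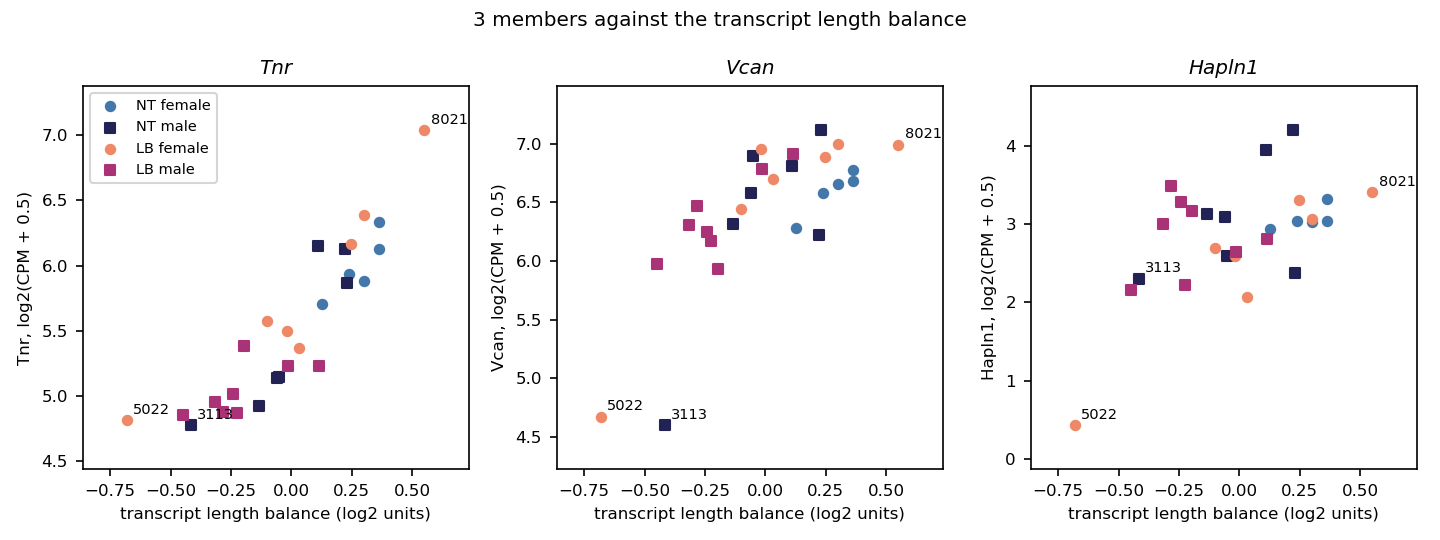
Log2(CPM + 0.5) of Tnr, Vcan and Hapln1 (vertical axes) against the transcript length balance (horizontal axes, log2 units), with 1 point per animal. Tnr follows the balance from LB female 5022 at -0.68 to LB female 8021 at 0.55, and LB female 5022 has the lowest Hapln1 of all animals, at 0.857 CPM.

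LB female 5022 had 24.96 CPM of Vcan, against 86.4 to 127 CPM in the other LB females, and 0.857 CPM of Hapln1, against 3.69 to 10.1 CPM. NT male 3113 had 23.8 CPM of Vcan and a balance of -0.42. With the balance as a covariate the sex difference of Tnr over all animals was -0.18 with an adjusted p of 0.235, and that of Acan between NT males and NT females was 1.89 with an adjusted p of 0.0459. The balance was also added as a covariate between LB males and LB females and between LB and NT in each sex. Those values are not given here, and its part in the remaining differences was not tested.

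Each lectican gene of this set lies beside a link protein gene in rn6, with no gene of the table between. Bcan, at chr2:187359675-187372652 on the minus strand, is 23.7 kb from Hapln2 at chr2:187396347-187401777. Their levels had a Pearson's r of 0.310 (permutation p = 0.115) and a Spearman's rho of 0.132 (permutation p = 0.512) over 27 animals, and r was 0.02 without NT male 6112 and LB female 5022. Ncan and Hapln4 on chromosome 16, with 4.67 kb between them, had an r of 0.313 (permutation p = 0.113) and a rho of 0.360 (permutation p = 0.0662). Acan and Hapln3 on chromosome 1, a link protein outside the set, are 2.85 kb apart and had an r of -0.08 (permutation p = 0.703) and a rho of -0.11 (permutation p = 0.574). Vcan and Hapln1, 73.6 kb apart on chromosome 2, had an r of 0.503 (permutation p = 0.0167), a rho of 0.142 (permutation p = 0.478) and an r of -0.03 without NT male 3113 and LB female 5022, so the relation rests on those animals. Adjusted over the 4 pairs, the lowest permutation p was 0.0668, and no pair was called.

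Some genes outside the set had patterns close to a member's. By Pearson's r of log2 levels within groups over 27 animals, as a description, Hapln2 was nearest to Slc5a11 at 0.961, Elovl1 at 0.948 and Tmem98 at 0.948. Acan was nearest to Mmel1 at 0.885, Limk1 at 0.883 and Phlda3 at 0.881. For Hapln1 the nearest were Dpp10 at 0.952, Usp32 at 0.943 and Glrb, the beta subunit of the glycine receptor, at 0.934. For Tnr they were Ttbk2 at 0.935, Kif1b at 0.922 and Pag1 at 0.919, and for Hapln4 Fzr1 at 0.919, Ap2a1 at 0.877 and Trappc9 at 0.851. The r values of these lists share the same libraries and their depth.

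The wider matrix was described with lists of 5 kinds. Between NT males and NT females, beside 15.2% of all genes, the enzymes that build and sulfate chondroitin sulfate, the sugar chains that lecticans carry, had 0 of 18 tested members higher and 3 lower. Chst7, a sulfotransferase of those chains, averaged 15.6 ± 6.62 CPM (SD, n = 7) among NT males against 32.8 ± 3.77 CPM (SD, n = 5) among NT females, with a log2 value of -1.07 and an adjusted p of 0.0103. The others were Chst15 at -1.08 and Ust at -0.95, which add further sulfate groups, and all 3 were also lower over all males.

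Proteases and their inhibitors had 3 of 17 tested genes higher and 1 lower in NT males. Adamts4, which cleaves aggrecan and brevican, averaged 35.7 ± 17.7 CPM (SD, n = 7) among NT males against 15.7 ± 3.22 CPM (SD, n = 5) among NT females, with a log2 value of 1.19 and an adjusted p of 0.0258. Timp2, an inhibitor of matrix metalloproteases, had a log2 value of 1.36 and an adjusted p of 0.0230, and Mmp24 was lower at -0.87. Mmp9 was also called, but it had 0 to 3 counts in NT females and 0 to 59 in NT males, so no fold is given. Among factors that bind nets and the receptors listed with them, 3 of 15 were higher and 2 lower. Ptn (pleiotrophin) averaged 380 ± 60.4 CPM (SD, n = 7) among NT males against 244 ± 39.0 CPM (SD, n = 5) among NT females, with a log2 value of 0.64 and an adjusted p of 0.0148, and Mdk (midkine) had 0.88. The receptor gene Rtn4rl2 was higher at 3.55, from a median of 0.322 CPM in NT females and a range of 0.1399 to 24.8 CPM in NT males. Nptx1, a neuronal pentraxin, was lower at -0.52, as was the receptor gene Rtn4rl1 at -0.54. Of the other proteins of the matrix 1 of 14 passed, Cspg4, the NG2 proteoglycan of precursors, at 0.64. Of other hyaluronan genes 0 of 7 passed, with none at an unadjusted p under 0.05, beside 4004 of all 12107 genes.

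Over all males and females, beside 29.3% of all genes, other matrix proteins had 4 of 14 higher and 3 lower in males. Bgn (biglycan) at 0.55, Cspg5 at 0.67, Crtac1 at 0.55 and Smoc1 at 1.30 were higher, and Tnc (tenascin-C) at -0.35, Spock1 at -0.44 and Spock2 at -0.63 were lower. Mmp17, with a log2 value of 2.28, joined Mmp9 and Timp2 among the proteases and inhibitors higher in males, and Mmp24 was again lower. Between LB and NT edgeR called 0 genes in each of the 5 lists in either sex. At an unadjusted p under 0.05 there were 1211 of all 12107 genes in males and 961 in females. Of the lists, with as many tested genes as given above, males had 4 net-bound factors or receptors, 3 proteases or inhibitors and 2 other matrix proteins. Females had 1 protease or inhibitor and 1 other matrix protein.

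Against the deep nucleus score, beside 4.89% of all genes, the proteases and inhibitors had 2 of 17 called, both upward. They were Adamts4 at 0.49 with an adjusted p of 0.0150 and Adamts1, a relative that cleaves the same lecticans, at 0.24 with an adjusted p of 0.0477. The net-bound factors and receptors had 2 of 15 called, both downward, Rtn4rl1 at -0.29 with an adjusted p of 0.0059 and Nptx1 at -0.26 with an adjusted p of 0.0064. The other 3 lists had 0 called by edgeR. At an unadjusted p under 0.05, where 1958 of all 12107 genes stood, these lists had few genes. They were 3 other matrix proteins, 1 gene of chondroitin sulfate synthesis and 1 other hyaluronan gene. Among those Chst3, which places sulfate on chondroitin, had 0.63 with an adjusted p of 0.180, Smoc1 had 0.59 with an adjusted p of 0.0792 and Sparcl1 had 0.14 with an adjusted p of 0.0891.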

How the data were processed

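The deposited table holds raw counts per gene, which the authors made by aligning reads to rn6 with STAR 2.5.2b and counting with featureCounts of Subread 1.5.1. Strand handling and the annotation are not given in the sources used here. The study left out samples of low RNA integrity. Groups came from the labels.

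Genes were kept with filterByExpr (minimum count 10, minimum total 15). Counts were scaled by TMM and fitted with edgeR 4.0.16 in R 4.3.3 (robust quasi-likelihood, prior count 0.125), with 1 model over 4 groups and Benjamini-Hochberg adjustment over all 12107 genes at a threshold of 0.05. Slopes added a marker score to that model, with a pseudocount of 0.5 on the log2 scale. Intervals are 95% intervals of the model. Correlations used permutation tests with SciPy 1.17.1. Alternatives used DESeq2 1.42.0, limma 3.58.1, other filters, scalings and covariates, and left out each animal.

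Members, gene lists and tests were chosen with earlier results of these data known. Genes were named if they were members, or list genes that passed the threshold; Chst3, Smoc1 and Sparcl1 were named after their values were seen. Likeness was the 3 highest within-group correlations for each of 5 members. The scripts were tested on simulated data.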

Additional observations from a re-analysis of the deposited data

Results flagged for a closer look

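In 40 groups of animals, 10 members in 4 groups each, 9 values stood further from the nearest other animal, as a share of the group's range, than Dixon's criterion allows, and chance flags about 1 in 20 groups. NT male 6112 had 16.4 CPM of Acan, with the next NT male at 5.03 CPM, and 269 CPM of Bcan, with the next at 178 CPM. LB male 7122 had 6.12 CPM of Acan, with the next LB male at 2.81 CPM. These are the 2 animals with the highest Slc17a6 levels.

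LB female 5022 had 24.96 CPM of Vcan, with the next LB female at 86.4 CPM, and 75.0 CPM of Hapln2, with the next at 31.8 CPM. LB male 9122 had 70.1 CPM of Hapln2, with the next LB male at 32.8 CPM. NT male 3113 had 334 CPM of Hapln4, with the next NT male at 223 CPM. In NT females, animal 2011 had 9.50 CPM of Hapln1, with the next at 7.72 CPM, and animal 2012 had 0.917 CPM of Has2, with the next at 0.631 CPM.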

How the results depend on the processing

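Of 10 members, the number called between NT males and NT females was 2, and it was 0 with limma-voom, with a random block for each title prefix, with the deep nucleus, meningeal or oligodendrocyte score as a covariate, or with only the groups compared, and 1 with the transcript length balance, and it ran from 0 to 2 when an animal was left out. Between LB males and LB females it was 1 with DESeq2 and 0 to 1 when an animal was left out. Over all males and females it was 1 with limma-voom or with the deep nucleus or precursor score, 0 with the block or with the meningeal or oligodendrocyte score, and 2 to 4 when an animal was left out, the 4 being without NT male 3113. For the deep nucleus slope it was 1 with DESeq2 size factors, library size alone, no filter, 10 counts in every animal, Slc17a6 alone, or the oligodendrocyte or granule score, 0 with the motor neuron score or without the 4 animals of highest score, and 0 to 3 when an animal was left out. For the granule slope it was 1 with library size alone and 1 to 3 when an animal was left out. For the oligodendrocyte slope it was 2 with no group term and 1 to 2 when an animal was left out. For the astrocyte slope it was 1 with library size alone or with the block, and 0 to 1 when an animal was left out. With no group term it was 4 for the precursor slope and 5 for the microglia slope. For the forebrain slope it was 2 with DESeq2, 0 without 5 animals, and 1 to 2 when an animal was left out. Values that changed sign were Hapln2 between NT males and NT females (-0.32), over all males and females (-0.31) and in the deep nucleus slope (-0.032), each with the oligodendrocyte score, and Acan in the oligodendrocyte slope with the deep nucleus score (-0.34). Apart from fits with fewer animals or genes, the cause was not tested. The covariates oligodendrocyte, precursor, motor neuron and length balance and the fits without 4 or 5 animals were chosen after seeing the data. No paired analysis was possible because the labels pair no animals across groups, and the block (consensus correlation 0.17) joined animals of the same group. Low counts limit Has2 and Has3, which were below 10 counts in 7 and 17 of 27 animals. Acan was low as well, with 13 to 33 counts in NT females and a median of 29 counts over 27 animals.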
